A study of Apis mellifera with 12 samples.

Results

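The fatty acid metabolism genes described here are 7 of the 15314 honey bee genes in the count table. They are GB49336, GB40681, GB55263, GB51729, GB42141, GB40673 and GB41617, the orthologs of Drosophila melanogaster CG11198, CG31522, CG5065, CG6178, CG12262, CG9914 and CG3267. The list was drawn from the fatty acid genes that the study grouped among those it called different between mated and virgin queens in these same libraries. A higher level in mated than in virgin queens was therefore fixed by the choice of genes, and counts in that direction are given as a description. All 7 passed the filter on low counts, which kept 13038 genes.

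The study asked how the queen brain changes with mating, and whether CO2 narcosis, which beekeepers use to bring virgin queens into lay, changes it in the same way. RNA was extracted from single dissected brains of Apis mellifera queens, and each brain gave 1 library, for 4 queens in each of the virgin, mated and CO2-treated groups. All 12 queens were sisters raised from a single source colony of mainly ligustica stock, each was kept in its own nucleus colony, and each was collected at 8 days of age. Mated queens flew and mated naturally after assignment on day 6 and were seen with a mating plug. CO2-treated queens were held in CO2 for 10 min on day 6 and again on day 7. Virgin queens were caged beside them but received no narcosis. By the study's dissections the mated queens had developing eggs and semen, whereas virgin and CO2-treated queens had neither. Flight, mating, semen and ovary activation therefore cannot be told apart in the mated group. Caging is described only for the virgin and CO2-treated queens, so it cannot be told apart from these either. The sisters of a single colony represent that colony only, and the p-values measure the spread between these sisters.

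Fatty acids are built from acetyl-CoA in the cytosol, where acetyl-CoA carboxylase makes malonyl-CoA, the donor of carbon units, and elongases in the endoplasmic reticulum then lengthen the chain. Acyl-CoA synthetases activate a fatty acid by joining it to coenzyme A, after which it can be stored, reduced to a fatty alcohol by acyl-CoA reductases, or oxidized in mitochondria by acyl-CoA dehydrogenases and hydroxyacyl-CoA dehydrogenases. In insects the fat body is the main site of fat synthesis and storage, while in the brain much of the lipid work is known from glia. Branched-chain amino acids such as leucine are broken down through acyl-CoA steps of the same kind. Roles below are those of the Drosophila orthologs and were not measured in the bee.

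Libraries held 12434733 to 20677514 counts, and 3 counts corresponded to between 0.134 and 0.271 CPM, the count of a gene scaled to a library of fixed size. All levels below are CPM with library sizes scaled by TMM, which corrects for genes that take a large share of a library. Such a gene was present. GB49544, which carries no name in the sources used here, took 13.7% to 42.7% of the counts in mated queens, 0.153% to 2.89% in virgin queens and 1.12% to 5.02% in CO2-treated queens. Of the neuron markers of the labelled tissue, synaptotagmin (syt, GB54319) was present at 31.8 to 374 CPM, while the active zone gene bruchpilot (brp, GB51381) was at only 0.215 to 4.25 CPM. In bulk samples such as these, fewer cells of a type and less RNA per cell cannot be told apart.

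In mated queens compared with virgin queens, the elongase GB40681 was 9.45-fold higher and the acyl-CoA reductase GB55263 was 84.1-fold higher, and these 2 of the 7 genes passed the threshold, set at 0.05 for the p-value of edgeR's quasi-likelihood test with Benjamini-Hochberg adjustment over all genes tested. The same call was made in the upward direction for 0.951% of all genes. The other 5 genes had fold changes between 2.25 and 4.24 and did not pass. All 7 log2 fold changes lay above 0, with a median of 1.73 against -0.08 over all genes, and 43.3% of all genes had a log2 fold change above 0. The 4 mated queens lay above all 4 virgin queens for 3 of the genes (GB40681, GB55263 and GB51729), as for 3.4% of all genes. Since the genes were taken from a list called on this contrast, nothing is read from these shares.

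In mated compared with CO2-treated queens, a contrast that uses the same 4 mated queens, only GB55263 passed the threshold, where 0.522% of all genes were called higher in mated queens. It was also the only one of the 7 for which the mated queens lay wholly above the CO2-treated queens, against 5.48% of all genes. The 7 log2 fold changes ranged from 0.02 for GB40681 to 5.80 for GB55263, with a median of 1.01 against -0.03 over all genes, and 47.1% of all genes lay above 0. The choice of genes favoured high values in these same mated queens. All genes are therefore not a like comparison, and nothing is read from these medians and shares.

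In CO2-treated compared with virgin queens, which shares the virgin queens with the first contrast, none of the 7 genes passed the threshold in edgeR's quasi-likelihood test. Calls in this contrast were rare, at 0.0153% of all genes, or 2 genes, although 758 genes had an unadjusted p under 0.05. Among the 7, 1 gene had an unadjusted p under 0.05, the elongase GB40681, and edgeR's exact test with tagwise dispersions and DESeq2 each called it and no other of the 7. It was also the single gene without overlap between the groups, against 2.05% of all genes. The log2 fold changes of the 7 ranged from 0.22 for GB42141 to 3.22 for GB40681, with a median of 0.73 against -0.02 over all genes, and 47.6% of all genes lay above 0. Here the choice of genes favoured low values in these same virgin queens, so nothing is read from these medians and shares either.

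**Figure D1:**
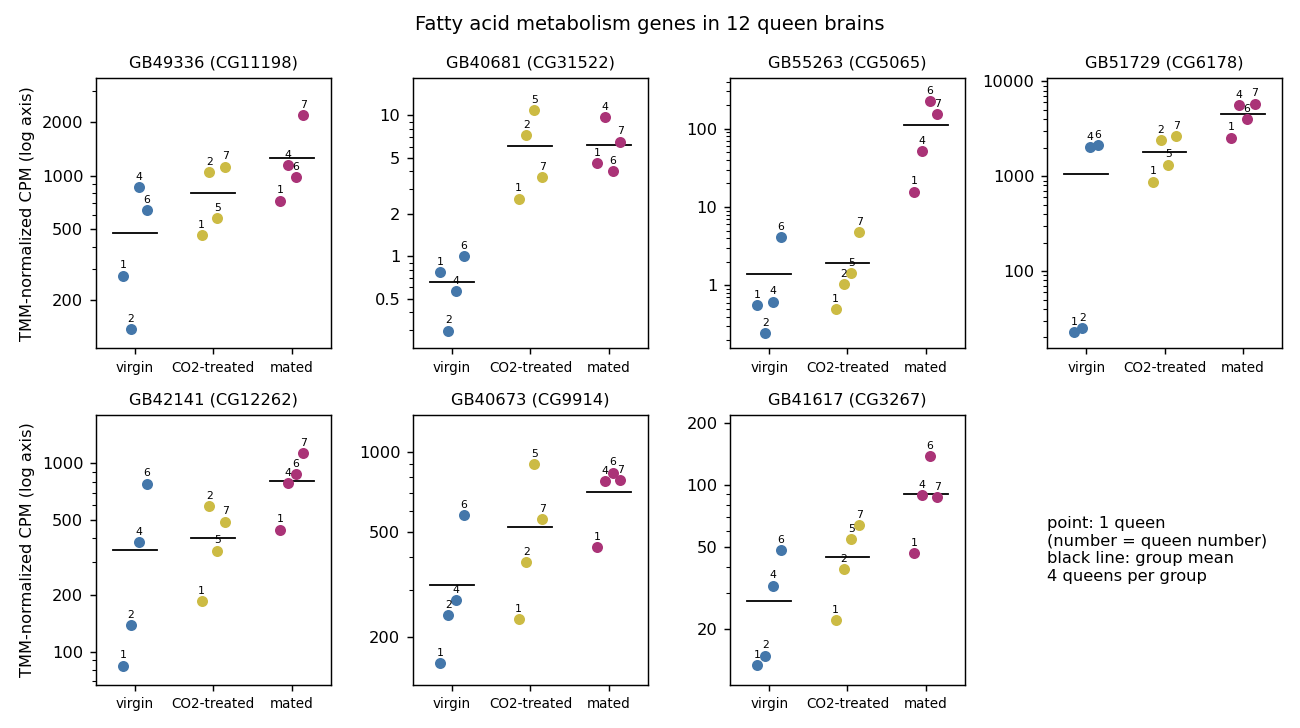
Level of each of the 7 genes in each queen, as TMM-normalized CPM on a log axis; points are queens marked with their queen number and black lines are group means of 4 queens. GB55263 is at 15.7 CPM or more in the mated queens and at 4.80 CPM or less in the others, GB40681 is low in the virgin queens only, and GB51729 separates virgin queens 1 and 2, near 22.6 and 25.1 CPM, from the other 10.

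GB49336 is the ortholog of acetyl-CoA carboxylase, the enzyme of the first committed step of fatty acid synthesis. Its level was 275, 137, 862 and 645 CPM in virgin queens 1, 2, 4 and 6, then 727, 1154, 985 and 2197 CPM in mated queens 1, 4, 6 and 7, and 465, 1046, 579 and 1127 CPM in CO2-treated queens 1, 2, 5 and 7. Virgin queens 1 and 2 were the lowest of the 12 and mated queen 7 the highest, and virgin queen 4 lay above mated queen 1. Group means were 479.9 ± 333 CPM in virgin, 1265 ± 645 in mated and 804 ± 331 in CO2-treated queens (mean ± SD, n = 4). The log2 fold change of mated over virgin queens was 1.40 ± 0.54 (SE, adjusted p = 0.226, edgeR). It was 0.65 ± 0.53 over CO2-treated queens (adjusted p = 0.588) and 0.74 ± 0.53 for CO2-treated over virgin queens (adjusted p = 0.869). None of the 3 contrasts was called for this gene.

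GB40681 is the ortholog of CG31522, an elongase of very-long-chain fatty acids. It was a low-count gene, with 6 to 15 counts in virgin queens, 46 to 134 in mated queens and 41 to 189 in CO2-treated queens. In CPM this gave 0.769, 0.296, 0.562 and 1.004 in virgin queens 1, 2, 4 and 6. Mated queens 1, 4, 6 and 7 had 4.57, 9.66, 4.00 and 6.50 CPM, and CO2-treated queens 1, 2, 5 and 7 had 2.56, 7.28, 10.9 and 3.63 CPM. Every virgin queen lay below every other queen, and the mated and CO2-treated queens overlapped over most of their range. The lowest of these values, the 6 counts of virgin queen 2, had an exact binomial 95% interval of 0.109 to 0.644 CPM, which covers counting error only.

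The elongase rose by a log2 fold change of 3.24 ± 0.53 from virgin to mated queens (95% interval 2.10 to 4.38, adjusted p = 0.0139, edgeR). Between CO2-treated and virgin queens the log2 fold change was nearly the same, 3.22 ± 0.53 (95% interval 2.08 to 4.36), and the unadjusted p was 3.51e-05 against 3.41e-05 for mated and virgin queens. The adjusted p in that contrast was 0.115, since fewer genes had small p-values there, and it ranked 4 by p among all genes. Mated and CO2-treated queens differed by a log2 fold change of 0.02 ± 0.46, with a 95% interval of -0.98 to 1.02, so differences of up to about 2-fold either way were not resolved. The call between mated and virgin queens was made in 7 of 8 fits in which a queen of either group was omitted, and was lost without virgin queen 2 (log2 fold change 2.99, adjusted p = 0.0603). The call between CO2-treated and virgin queens was made in none of the 8 such fits (adjusted p 0.0864 to 0.453), whereas the exact test with tagwise dispersions gave an adjusted p of 1.37e-05 and DESeq2 gave 1.55e-06.

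GB55263 is the ortholog of CG5065, a fatty acyl-CoA reductase, which turns an acyl-CoA into a fatty alcohol. Mated queens 1, 4, 6 and 7 had 15.7, 52.3, 223 and 153 CPM. Virgin queens 1, 2, 4 and 6 had 0.564, 0.247, 0.618 and 4.09 CPM, and CO2-treated queens 1, 2, 5 and 7 had 0.500, 1.04, 1.44 and 4.80 CPM. Every mated queen lay above the other 8, which overlapped each other, and the mated queens themselves differed by 14.2-fold. In counts, the mated queens had 268 to 2560, the virgin queens 5 to 57 and the CO2-treated queens 8 to 107.

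The reductase rose by a log2 fold change of 6.39 ± 1.08 from virgin to mated queens (95% interval 4.07 to 8.72, adjusted p = 0.0154) and by 5.80 ± 1.04 from CO2-treated to mated queens (95% interval 3.57 to 8.03, adjusted p = 0.0246), both in the edgeR fit. CO2-treated and virgin queens differed by 0.59 ± 0.96 on the log2 scale (adjusted p = 0.952), with an interval of -1.48 to 2.67. These calls stood close to the threshold. Between mated and virgin queens the call was made in 5 of the 8 fits with a queen left out, and was lost without virgin queen 2 (log2 fold change 6.03, adjusted p = 0.0659), virgin queen 4 (6.15, 0.0506) or mated queen 6 (5.75, 0.0514). Without virgin queen 6, the highest of the virgin queens, the log2 fold change was 7.85 (adjusted p = 0.00778).

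Between mated and CO2-treated queens the reductase GB55263 passed in 3 of 8 such fits. It was lost without mated queen 6 (log2 fold change 5.18, adjusted p = 0.09), mated queen 7 (5.58, 0.0743), CO2-treated queen 1 (5.50, 0.102), CO2-treated queen 2 (5.59, 0.0948) or CO2-treated queen 5 (5.68, 0.0835), and was 6.78 without CO2-treated queen 7 (0.0454). In all of these fits the log2 fold change was 5.18 or more. Both contrasts passed under each of 10 other settings of test, scaling and filter in which the gene could be tested.

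GB51729 is the ortholog of CG6178, which in Drosophila encodes a fatty acyl-CoA synthetase related to firefly luciferase. Virgin queens 1 and 2 had 22.6 and 25.1 CPM, while virgin queens 4 and 6 had 2041 and 2138 CPM. Mated queens 1, 4, 6 and 7 had 2562, 5578, 3971 and 5822 CPM, and CO2-treated queens 1, 2, 5 and 7 had 878, 2403, 1327 and 2642 CPM. The virgin group was thus split in pairs that differed by up to 94.6-fold, and its upper pair lay within the range of the CO2-treated queens and below the lowest mated queen. The same 2 virgin queens had the smallest shares of GB49544, 0.162% and 0.153%, against 2.88% and 2.89% in virgin queens 4 and 6. The part of the source of GB49544 in the split was not tested.

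The mean of GB51729 was 1057 ± 1193 CPM in virgin, 4483 ± 1522 in mated and 1812 ± 846 in CO2-treated queens (SD, n = 4). Although mated and virgin queens did not overlap, the log2 fold change of 2.08 ± 1.10 was not called (95% interval -0.29 to 4.46, adjusted p = 0.373, edgeR). The log2 fold changes of mated over CO2-treated queens, 1.31 ± 1.08, and of CO2-treated over virgin queens, 0.78 ± 1.06, were not called either (adjusted p = 0.594 and 0.939). This gene had the widest standard error of the 7 in each of the 3 contrasts.

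GB42141 is the ortholog of CG12262, a medium-chain acyl-CoA dehydrogenase of the first step of mitochondrial beta-oxidation. It was at 84.4, 139, 383 and 781 CPM in virgin queens 1, 2, 4 and 6, at 445, 788, 877 and 1132 CPM in mated queens 1, 4, 6 and 7, and at 185, 592, 344 and 491 CPM in CO2-treated queens 1, 2, 5 and 7. Virgin queen 6 lay within the mated range and virgin queens 1 and 2 lay below all others. The log2 fold change of mated over virgin queens was 1.22 ± 0.59 (adjusted p = 0.334, edgeR), that of mated over CO2-treated queens 1.01 ± 0.59 (adjusted p = 0.462) and that of CO2-treated over virgin queens 0.22 ± 0.58 (adjusted p = 0.972). The last was the smallest difference of the 7 between CO2-treated and virgin queens, with a 95% interval of -1.04 to 1.48. Its sign turned when virgin queen 1 (-0.11), virgin queen 2 (-0.05) or CO2-treated queen 2 (-0.03) was left out.

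GB40673 is the ortholog of CG9914, a member of the 3-hydroxyacyl-CoA dehydrogenase family. Its level was 160.1, 243, 276 and 576 CPM in virgin queens 1, 2, 4 and 6, then 438, 773, 835 and 781 CPM in mated queens 1, 4, 6 and 7, and 233, 384, 900.4 and 557 CPM in CO2-treated queens 1, 2, 5 and 7. The highest of the 12 was CO2-treated queen 5, not a mated queen, and virgin queen 6 lay above mated queen 1. The log2 fold changes were 1.17 ± 0.45 for mated over virgin (adjusted p = 0.221, edgeR), 0.45 ± 0.44 for mated over CO2-treated (0.653) and 0.73 ± 0.44 for CO2-treated over virgin queens (0.839).

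GB41617 is the ortholog of CG3267, the beta chain of methylcrotonoyl-CoA carboxylase, a mitochondrial enzyme of leucine breakdown rather than of fatty acid synthesis. It was at 13.4, 14.9, 32.5 and 48.1 CPM in virgin queens 1, 2, 4 and 6, at 46.6, 89.4, 138 and 87.2 CPM in mated queens 1, 4, 6 and 7, and at 22.1, 39.0, 54.4 and 63.6 CPM in CO2-treated queens 1, 2, 5 and 7. Mated queens 4, 6 and 7 lay above all others, and mated queen 1 lay just under virgin queen 6. The log2 fold change of mated over virgin queens was 1.73 ± 0.45, and its adjusted p of 0.09 in edgeR was the nearest to the threshold among the genes not called. It passed only without virgin queen 6 (log2 fold change 2.16, adjusted p = 0.0359) among the fits with a queen left out, and was called by DESeq2 (adjusted p = 0.00811) and the exact test with tagwise dispersions (0.00394). Mated queens exceeded CO2-treated queens by 1.01 ± 0.44 (adjusted p = 0.334) and CO2-treated exceeded virgin queens by 0.72 ± 0.44 (adjusted p = 0.839).

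**Figure D2:**
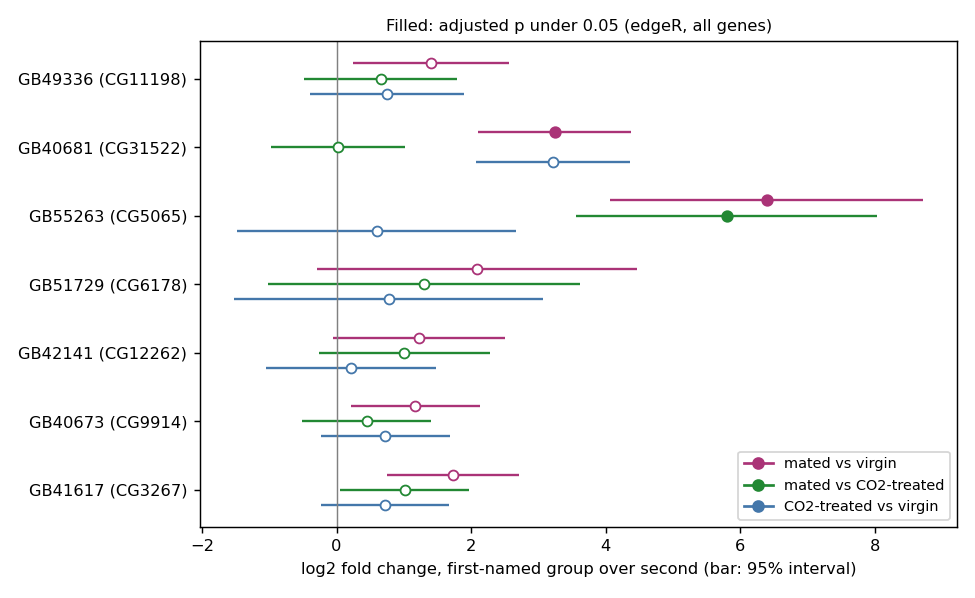
Log2 fold change of each of the 7 genes in the 3 contrasts, with bars for the 95% interval from edgeR's quasi-likelihood fit and filled points for genes past the threshold. The elongase GB40681 sits at 3.24 and 3.22 against virgin queens and at 0.02 between mated and CO2-treated queens, while the reductase GB55263 sits at 6.39 and 5.80 in the contrasts with mated queens and at 0.59 between CO2-treated and virgin queens.

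By group means of log2 CPM all 7 genes were ordered virgin, CO2-treated, mated, an order found for 18.9% of all genes tested. Part of this order, mated above virgin, was fixed by the choice of genes, while 43.3% of all genes had that direction in edgeR. The 18.9% is therefore not a like comparison, and nothing is read from it. The place of the CO2-treated mean on the way from the virgin mean to the mated mean differed widely between genes. It was 11.3% for the reductase GB55263 and 95% for the elongase GB40681. The other 5 lay in between, at 36.2% for GB42141, 44.3% for GB41617, 55.5% for GB40673, 60.9% for GB49336 and 67.8% for GB51729. For those 5 genes neither neighbour in the order differed from the CO2-treated queens past the threshold, so their middle place is a description of the means. The places and their ranking depend on the scale, here means of log2 CPM. By edgeR's log2 fold changes over virgin queens, CO2-treated and mated queens stood at 0.78 and 2.08 for GB51729. The values were 0.22 and 1.22 for GB42141 and 0.73 and 1.17 for GB40673. On that scale GB40673 lay further along than GB51729.

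Queens of a group also differed from each other in step. CO2-treated queen 1 was the lowest of its group for 7 of the 7 genes, as for 32.1% of all genes. Mated queen 1 was the lowest mated queen for 6 of the 7, with GB40681 the exception, as for 27.9% of all genes. Virgin queen 6 was the highest virgin queen for 6 of the 7, with GB49336 the exception, as for 28% of all genes. Virgin queens 4 and 6 both lay above virgin queens 1 and 2 for 6 of the 7, with GB40681 again the exception, as for 17.4% of all genes. The labels of virgin 1, mated 1 and CO2-treated queens 1 and 2 carry a mark whose meaning the sources used here do not give, and the lanes of the libraries are not known here.

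**Figure D3:**
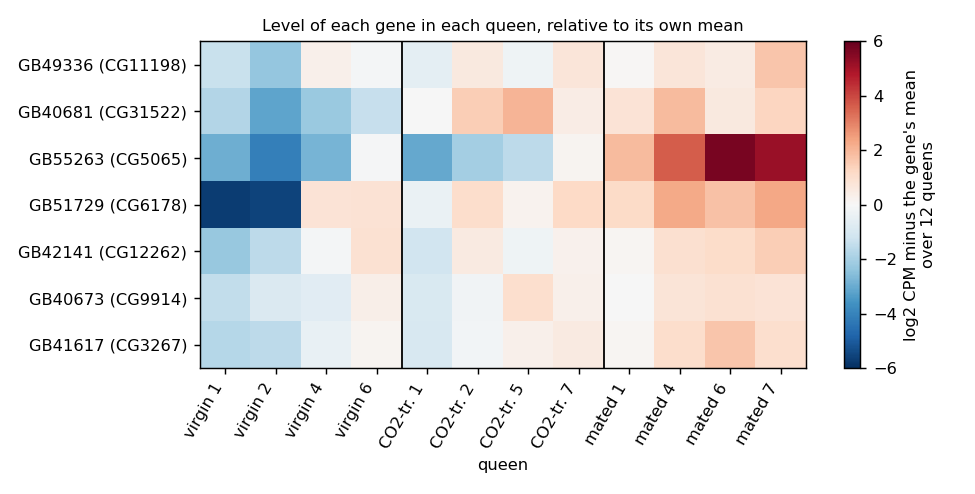
Log2 CPM of each of the 7 genes in each of the 12 queens, minus the gene's own mean over the 12 queens; red is above and blue below that mean, and black lines part the groups. Values span -5.68 to 5.71, and virgin queens 1 and 2 are below the mean for all 7 genes.

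After the group means were removed, the correlation of log2 CPM over the 12 queens had a median of 0.670 over the 21 pairs of genes. The 6 pairs with the elongase GB40681 were the looser ones, at 0.243 to 0.563 with a median of 0.380, and the other 15 pairs ran from 0.425 to 0.889 with a median of 0.742. These points share their libraries, depth and scaling, and the correlations are given as a description.

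Among the 10297 genes whose mean log2 CPM reached 1, the gene most like each of the 7 over the 12 queens was found by Pearson's r of log2 CPM. For GB51729 it was GB41034 (CG10960 in Drosophila), with r = 0.988 and, after removal of group means, r = 0.988. For GB40673 it was GB50596 (CG10638), with r = 0.962 and 0.936. For GB49336, GB55263, GB42141 and GB41617 the nearest genes had no ortholog in the sources used here. They were GB48543 (0.963, and 0.943 within groups), GB46629 (0.970 and 0.829), GB41807 (0.965 and 0.949) and GB43876 (0.975 and 0.940). The elongase GB40681 had the least close neighbour, GB49493, with r = 0.907 over the queens and 0.538 within groups.

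Levels of markers of other cell types differed between queens, and few of them passed the test. The 4 genes listed for fat body and haemolymph included GB49544, whose cell type the sources used here do not give. Their summed level was 3318 to 32564 CPM in virgin queens (median 19130). It was 143001 to 794330 in mated queens (median 430677) and 14229 to 52938 in CO2-treated queens (median 31092). Without GB49544, the sum of both Lsp2 storage protein genes and the lipophorin gene RfaBp was 2200 to 7148, 9752 to 25296 and 5557 to 8666 CPM in the same order. Haemocyte genes (Hml and srp) summed to 319 to 1446, 843 to 2647 and 775 to 3328 CPM, and 11 muscle genes to 405 to 4039, 404 to 7626 and 415 to 2292 CPM. The 6 photoreceptor genes summed to 109 to 798, 59.4 to 243 and 73.5 to 179 CPM. For 0 of these 6 was the log2 fold change of mated over virgin queens above 0 (median -1.39), and for 4 of the 6 that of mated over CO2-treated queens was (median 0.60). No marker was at 0 in every queen, and of the 25 markers, 1, the storage protein gene Lsp2 (GB51698), was called higher in mated than in virgin queens and none was called in the other contrasts.

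Within groups, the correlation of the fat body sum with the 7 genes ran from 0.305 for GB40681 to 0.910 for GB41617, and was 0.813 for GB55263. That sum was largely the unnamed GB49544 in many queens, which made up 21.1% to 96.8% of it. Without GB49544 the correlations ran from 0.409 for GB40681 to 0.757 for GB41617, and with GB49544 alone from 0.275 for GB40681 to 0.937 for GB51729. The sum without GB49544 was mostly RfaBp, at 2146 to 22233 CPM. The Lsp2 gene GB51697 was at 14.9 and 18.4 CPM in mated queens 1 and 7, within the virgin range of 13.8 to 24.9. In mated queens 4 and 6 it was at 98.2 and 136 CPM. The corresponding values for the haemocyte sum, which is mostly Hml, ran from 0.478 for GB49336 to 0.916 for GB40673. For the muscle sum they ran from 0.203 for GB49336 to 0.618 for GB40673, with GB40681 at 0.576. For the photoreceptor sum they ran from -0.853 for GB42141 to -0.123 for GB40681. Those for the neuron sum, which is almost wholly syt, ran from 0.342 for GB40681 to 0.920 for GB49336. The other neuron marker had the opposite sign between mated and virgin queens, with log2 fold changes of -1.57 ± 0.69 for brp (adjusted p = 0.286, edgeR) and 1.60 ± 0.55 for syt (adjusted p = 0.179), neither of which passed. The part of these cell types in the levels of the 7 genes was not tested.

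The wider fatty acid and lipid list held 29 further genes, taken from tables of genes that the study called in these libraries, so their direction is not independent evidence either. Between mated and virgin queens 3 of the 29 rose and 1 fell by edgeR's quasi-likelihood test, 24 had a log2 fold change above 0 and the median was 1.45. Over all genes 0.951% were called higher, 33 genes were called lower and 43.3% lay above 0. Between mated and CO2-treated queens 2 rose and 1 fell, 25 lay above 0 and the median was 1.25, where 0.522% of all genes were called higher, 18 genes lower and 47.1% lay above 0. Between CO2-treated and virgin queens none was called by that test, 21 lay above 0 and the median was 0.38, where 0.0153% of all genes were called higher, 0 genes lower and 47.6% lay above 0. DESeq2 and the exact test with 1 common dispersion each called 1 of the 29 there, the reductase GB49327, as lower in CO2-treated queens. Its log2 fold change in edgeR was -1.75 ± 0.41, without overlap between the groups.

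GB54888, an ortholog of the diacylglycerol acyltransferase CG1942 of triglyceride synthesis, was at 28.9 to 47.5 CPM in virgin queens, 71.8 to 142 in mated queens and 27.5 to 41.8 in CO2-treated queens. It rose in mated queens by 1.63 ± 0.23 over virgin (adjusted p = 0.00776) and by 1.72 ± 0.23 over CO2-treated queens (0.00544), and both calls were made whichever queen of the contrast was left out. The call against CO2-treated queens was lost with total counts in place of TMM (log2 fold change 1.01, adjusted p = 0.0669). GB42553, an ortholog of the lipase CG6296, was at 5.52 to 8.48, 0.542 to 1.51 and 3.81 to 7.44 CPM in virgin, mated and CO2-treated queens. It fell in mated queens, with log2 fold changes of -2.78 ± 0.36 against virgin (adjusted p = 0.005) and -2.36 ± 0.36 against CO2-treated queens (0.0115), again whichever queen was left out, although it could not be tested with the filter of 10 counts in each library. Like the reductase GB55263, both genes set the mated queens apart from the other 8 with no overlap. So did GB45193, GB45596, GB47273, GB47668, GB53354 and GB44460 of the list, all higher in mated queens. Over all genes, mated queens lay wholly above virgin queens for 3.4% and wholly above CO2-treated queens for 5.48%. The share with both was not counted.

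GB45193, an ortholog of the glutaryl-CoA dehydrogenase CG9547 of lysine breakdown, was at 13.5 to 36 CPM in virgin and 56.9 to 167 CPM in mated queens and rose by 1.88 ± 0.37 (adjusted p = 0.0284). Its call was lost without virgin queen 1 (adjusted p = 0.0811), virgin queen 2 (0.107), virgin queen 4 (0.0664), mated queen 6 (log2 fold change 1.32, 0.0856) or mated queen 7 (0.0602). The call was also lost when only the 2 groups were fitted in edgeR (adjusted p = 0.104). The desaturase GB42219, an ortholog of desat1, was at or under 1 count in each virgin queen and at 2 to 88 counts in mated queens and was called higher there (adjusted p = 0.0212). Its fitted fold change depends on the prior count and is not given, and its call was lost without virgin queen 1 (adjusted p = 0.0678), 2 (0.104) or 4 (0.0664) or mated queen 6 (0.0684). Fitting only the 2 groups in edgeR also lost the call of GB42219 (adjusted p = 0.0623). With the filter of 10 counts in each library it could not be tested. GB44460, an ortholog of CG1583 listed with the lipases, was called between mated and CO2-treated queens (log2 fold change 1.85 ± 0.38) at an adjusted p of 0.04997, and kept that call in 1 of the 8 fits with a queen of the contrast left out, that without mated queen 1 (0.0304), against 0.0613 to 0.216 in the other 7.

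Genes of the same role as the called members did not pass in edgeR's quasi-likelihood test but in part passed in others. None of the 5 other acyl-CoA reductases was called in any contrast by that test, and their log2 fold changes of mated over virgin queens were -0.0045 for GB49327, 1.32 for GB49328, 1.27 for GB50627, 2.40 for GB52087 and 1.18 for GB53516. Of the other elongases, GB45596, the ortholog of Baldspot, had 1.86 (adjusted p = 0.104) and GB54396, the ortholog of CG5326, had -1.33 (adjusted p = 0.395). Whether these differ from the changes of GB55263 and GB40681 was not tested. With the exact test and tagwise dispersions or with DESeq2, 17 of the 29 were called higher in mated than in virgin queens. Among them were the reductases GB50627 and GB52087 and the elongase GB45596. Over all 13038 genes these tests called 400 and 450 higher, and the 29 were taken from genes the study had called. Without virgin queen 6, 11 of the 29 were called higher in edgeR, with the reductases GB49328, GB50627 and GB53516 among them. In that fit 193 of 13005 genes were called higher.

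**Figure D4:**
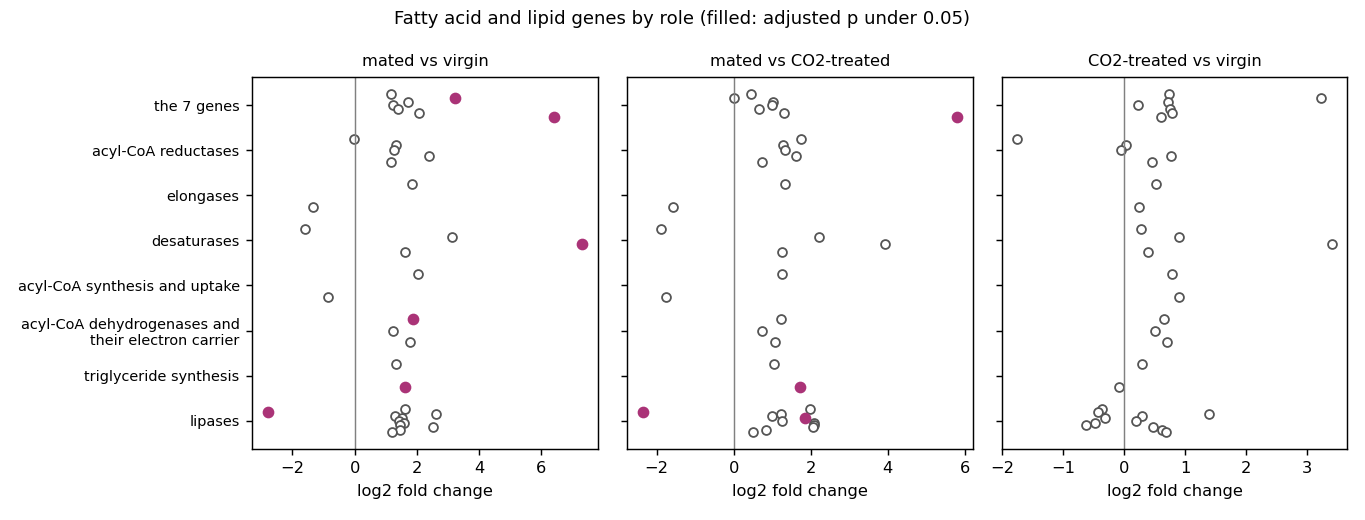
Log2 fold changes of the 7 genes and of 29 other fatty acid and lipid genes, by role, in the 3 contrasts, each on its own horizontal scale; points are genes and filled points passed the threshold in edgeR. Of the 29, 4 are filled for mated against virgin queens, 3 for mated against CO2-treated queens and none for CO2-treated against virgin queens.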

How the data were processed

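Brain RNA of 12 queens was sequenced by the authors as single-end reads on the Illumina platform, 1 library per queen. According to the paper's methods, reads were trimmed with Trimmomatic, ribosomal reads were removed with SortMeRna, and the rest were aligned with TopHat to the honey bee genome and counted with SAMtools idxstats. Versions of these tools are not given in the sources used here. The deposited raw counts per gene, to which the authors applied no normalization, were the only values used. The other deposited table, a standardized copy of the counts, was not used. Counts were not stated to use strand.

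Here edgeR 4.0.16 was run in R 4.3.3. Genes were kept if their counts summed to 10 or more across the 12 libraries, and libraries were scaled by TMM. A quasi-likelihood model with 3 groups used all 12 queens, with Benjamini-Hochberg adjustment over 13038 genes and a threshold of 0.05. A standard error was computed as the size of the log2 fold change divided by the root of F, so it restates the test. The fit was checked on simulated data. Libraries held 12434733 to 20677514 counts, and count intervals and floors of 3 counts cover counting error only.

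The 7 genes, the 29 other fatty acid genes and the markers were chosen with earlier results of these data known. The genes named are the 7, for each the gene with the highest r of log2 CPM (prior count 2, mean log2 CPM of 1 or more), the listed genes that passed the threshold in a contrast, and the markers. Further list members are named where the text compares roles or overlap between queens, chosen after their values were seen. A list by product name was not run, since no product names were paired with these gene identifiers. RefSeq symbols were found for 3 of the 7 genes.

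Alternatives were the exact test (tagwise dispersions, or 1 common dispersion), DESeq2 1.42.0, a robust version of the model, size factors of DESeq2, total counts with and without GB49544, no filter or at least 10 counts in each library, fits restricted to 2 groups, a block for queen number, and each queen left out in turn.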

Additional observations from a re-analysis of the deposited data

Results flagged for a closer look

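Both results stand apart by Dixon's test within a group of 4 queens. It was applied to 21 groups of values (7 genes in 3 groups of queens), and chance gives about 1 in 20. The test used CPM without logs and was not repeated on log2 CPM, where its outcome can differ for either value. The acyl-CoA reductase GB55263 was at 4.09 CPM in virgin queen 6, while the other virgin queens were at 0.247 to 0.618 CPM. The hydroxyacyl-CoA dehydrogenase family gene GB40673 was at 438 CPM in mated queen 1, while the other mated queens were at 773 to 835 CPM.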

How the results depend on the processing

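Of the 7 genes, those called numbered 2 (mated against virgin queens), 1 (mated against CO2-treated) and 0 (CO2-treated against virgin). With 1 common dispersion they numbered 7, 2 and 1, with DESeq2 or the exact test with tagwise dispersions 3, 1 and 1. Between mated and virgin queens, the exact test with a common dispersion called as many genes, higher and lower, as the study reports. The genes described here were drawn from the study's calls in that contrast. The 7 of 7 under that setting was thus largely fixed by the choice of genes, and nothing is read from it. With at least 10 counts in each library the genes called numbered 0, 0 and 0, since GB40681 and GB55263 are removed by that filter. With a queen left out they ranged from 0 to 3, 0 to 1 and 0 to 0, and the medians of their log2 fold changes from 1.45 to 2.16, 0.71 to 1.16 and 0.437 to 1.198. Total counts without TMM moved the median of all genes by more than any other setting, to -0.79, -0.67 and -0.10, and that of the 7 genes to 0.96 and 0.28 in the contrasts with mated queens. Between mated and CO2-treated queens 3 of the 7 then turned sign, GB49336 (-0.032), GB40681 (-0.59) and GB40673 (-0.24), and GB40681 also without GB49544 (-0.18). None of the turned values passed the test. Left-out queens turned GB40681 between mated and CO2-treated queens, at -0.29 to 0.46, GB42141 between CO2-treated and virgin queens, at -0.11 to 0.995, and GB55263 there without CO2-treated queen 7 (-0.39), up to 2.06.

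Queen numbers name different animals. The deviations from group means of same-numbered queens correlated at -0.284 to 0.514 over 7 pairs (mean 0.173, against -0.0286 for the other 41 pairs). With the queen number as a replicate block in edgeR, 3, 1 and 0 of the 7 genes were called. GB41617 was added between mated and virgin queens (adjusted p = 0.0143). Of the 29 other genes, 9 and 0 rose in the contrasts with mated queens, where 157 and 5 of 13038 genes were called higher. GB54888 (adjusted p = 0.179) and GB42553 (0.0734) lost their calls against CO2-treated queens. GB51729 turned between mated and CO2-treated queens (-0.070).

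Over all genes, calls between mated and virgin queens (157) numbered 505 with the exact test, 829 with 1 common dispersion, 640 with DESeq2, 4398 without TMM (160 higher) and 44 with only the 2 groups. Between mated and CO2-treated queens (86) they numbered 294, 627 and 421 with those tests, 97 without TMM (24 higher) and 10 with the replicate block. Between CO2-treated and virgin queens (2) they numbered 18, 151 and 20 with those tests and 0 to 2 in the other fits to all queens or to 2 groups. With a queen left out they ranged from 28 to 279, 18 to 179 and 1 to 2. The cause of these differences was not tested. Depth limits GB40681 and GB55263 in virgin queens, where 5 to 57 counts were available.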
